A study of Drosophila melanogaster with 6 samples.

Results

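The CCHamide system of Drosophila melanogaster comprises 4 genes, the peptide precursors CCHa1 and CCHa2 and the receptors CCHa1-R and CCHa2-R. They were taken by symbol from a table of 17117 genes measured in sorted mushroom body output neurons. CCHa2-R was selected on its fold change and p in neurons with a bantam sponge, as the study's own candidate, and the other 3 genes were chosen by name to go with it, so the values of all 4 in that contrast are given as a description. Reads were found for 3 of the 4 genes: both receptors and, with 5 reads in all, CCHa2.

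CCHamides are small secreted peptides with a pair of cysteines and an amidated histidine at the end. CCHa1 and CCHa2 are made in endocrine cells of the gut and in neurons, and CCHa2 also in the fat body; each acts on its own G protein-coupled receptor, and both receptors are relatives of the vertebrate bombesin receptors. In larvae, CCHa2 signals nutrient state to insulin-producing cells of the brain through CCHa2-R, and in adults CCHa1 and CCHa1-R have been tied to olfactory behaviour, to the clock network and to arousal from sleep.

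Output neurons relay the activity of the mushroom body, a brain centre for memory and sleep, and those profiled were of the types β′2mp, β′2mp_bilateral and γ5β′2a. Brains of mated females, 3 to 4 days old, were taken from ZT12 (the usual time of lights-off) to ZT13.5, and the cells were isolated by fluorescence-activated sorting. All flies carried UAS-CD8::GFP, which puts GFP on the membrane, and the driver components R14C08-p65.AD and R15B01-GAL4.DBD, together called MB011B, which limit expression to cells in which both components are active. The treated genotype had UAS-bantam_sponge opposite each driver component, a transcript meant to bind and sequester the microRNA bantam; the control had UAS-scramble_sponge at both places. Each genotype had 3 libraries that the labels call biological replicates, with no statement of how many brains or cells each holds, and p-values measure the spread between these libraries alone.

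The authors' deposited table gives per gene a log2 fold change (bantam over scramble sponge), a mean log2 CPM over all libraries (CPM is the number of reads relative to the size of a library) and a p-value. Reads per library were recovered here from those 3 numbers. The effective library sizes were 119054330, 43762681 and 8181530 reads with the bantam sponge and 98007556, 43572491 and 5306053 reads with the scramble sponge. Libraries are named below as deepest, middle and shallowest of their genotype, because which replicate number had which size is not known. In the authors' deposited table the mean log2 CPM was 10.35 for nSyb, of all neurons, and 10.70 for VGlut, the vesicular glutamate transporter. The row ban had no read, and a sponge acts on the mature microRNA, which poly(A) selection does not measure, so the table holds no check of the knockdown. No gene of the 17117 passed an adjusted p of 0.05 (edgeR exact test by the authors, Benjamini-Hochberg over all rows; smallest adjusted p 0.467), and 388 (2.27%) had an unadjusted p under 0.05.

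Transcripts of the peptides themselves were nearly absent from the sorted neurons. CCHa1 (FBgn0038199, chromosome 3R from 14092504 to 14096835 on the minus strand, dm6) had 0 reads in each of the 6 libraries, as did 45.7% of all genes. A count of 0 still allows 3 reads in a library, which are worth from 0.0252 CPM in the deepest bantam sponge library to 0.565 CPM in the shallowest scramble sponge library. CCHa2 (FBgn0038147, 3R from 13389059 to 13395197 on the minus strand) had 5 reads in the middle scramble sponge library, or 0.115 CPM with a 95% Poisson interval of 0.0373 to 0.268, and 0 reads in the other 5. Another 11 genes had exactly this set of reads, among them ATPsynbetaL and CG11261. That level is above the limit of 3 reads in the deepest and middle libraries of both genotypes (0.0252 to 0.0689 CPM) and below it in both shallowest libraries (0.367 and 0.565 CPM). The authors' deposited table gives CCHa2 a p of 0.589.

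**Figure D1:**
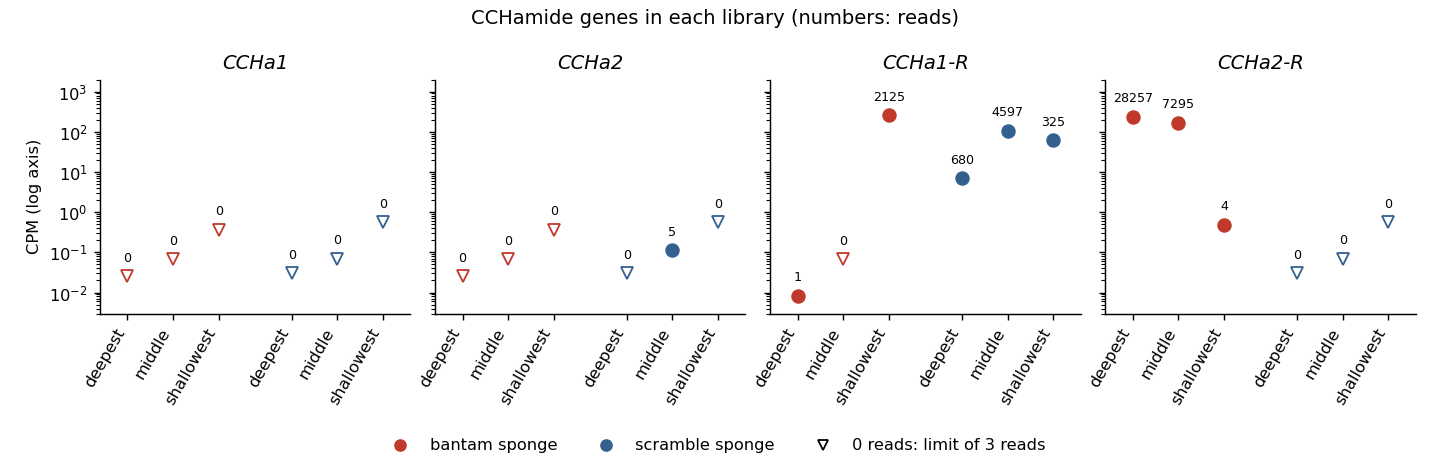
Level (CPM, log axis) of the 4 CCHamide genes in each of the 6 libraries, with the number of reads above each symbol; filled circles have reads, and open triangles mark the CPM of 3 reads in libraries with 0 reads. CCHa2-R is high in the deepest and middle bantam sponge libraries (237 and 167 CPM), and CCHa1-R ranges from 6.94 to 260 CPM in the other 4.

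CCHa2-R, the receptor of CCHa2, was read in bantam sponge neurons and in no scramble sponge library. The gene (FBgn0033058) lies on 2R from 6050949 to 6068680 on the plus strand, with 3 annotated transcripts and up to 8 exons. The deepest bantam sponge library held 28257 reads of it (237 CPM), the middle one 7295 reads (167 CPM) and the shallowest one 4 reads (0.489 CPM). The 3 scramble sponge libraries held 0 reads each, which allows up to 0.0306, 0.0689 and 0.565 CPM from the deepest to the shallowest. The deepest and middle bantam sponge libraries were thus far above every scramble sponge library, while the shallowest could not be set apart: its 4 reads (95% Poisson interval 0.133 to 1.25 CPM) lay below the limit of the shallowest scramble sponge library. These intervals and limits cover counting error only, since 25 cycles of PCR make many reads of 1 molecule.

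The bantam sponge mean of CCHa2-R was 135 ± 122 CPM (SD, n = 3). That is 608-fold the mean of the 3 scramble sponge libraries if each held the 3 reads that a count of 0 allows (0.222 CPM). The ratio allows for counting error only, so it is not a lower bound on the difference in expression. Without the deepest bantam sponge library the mean was 83.6 CPM, and without the shallowest 202 CPM. In the authors' deposited table its mean log2 CPM was 6.08, rank 3295 of 9286 genes with reads, and its unadjusted p was 0.00156. That p ranked 5 among genes with a higher value in bantam sponge. Its adjusted p was 1 over all rows, and 0.962 over genes with reads. The gene was singled out on this contrast, so these p-values are no test of it; 4.18% of genes with reads had an unadjusted p under 0.05, and 1.06% had one with the higher value in bantam sponge. In bulk libraries a change in the number of cells with a transcript and a change in transcript per cell cannot be told apart.

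Reads in 1 genotype alone were common in these libraries. Of 7252 genes at a mean of 0 log2 CPM or more, 326 (4.5%) had no read in scramble sponge and 617 (8.51%) had none in bantam sponge. At the level of CCHa2-R the pattern was rarer: of 1389 genes within 0.5 log2 CPM of it, 11 (0.792%) had no read in scramble sponge and 23 (1.66%) had none in bantam sponge. Reads per library were recovered for 324 of the genes without scramble sponge reads. Of these, 241 had all their reads in a single bantam sponge library, 74 in 2 libraries and 9 (2.78%), CCHa2-R included, in all 3. Genes with more than 3 reads in each of the 3 bantam sponge libraries numbered 7. The mirror pattern was more frequent. Of 603 genes without bantam sponge reads, 68 (11.3%) had reads in all 3 scramble sponge libraries, and 54 had more than 3 reads in each.

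**Figure D2:**
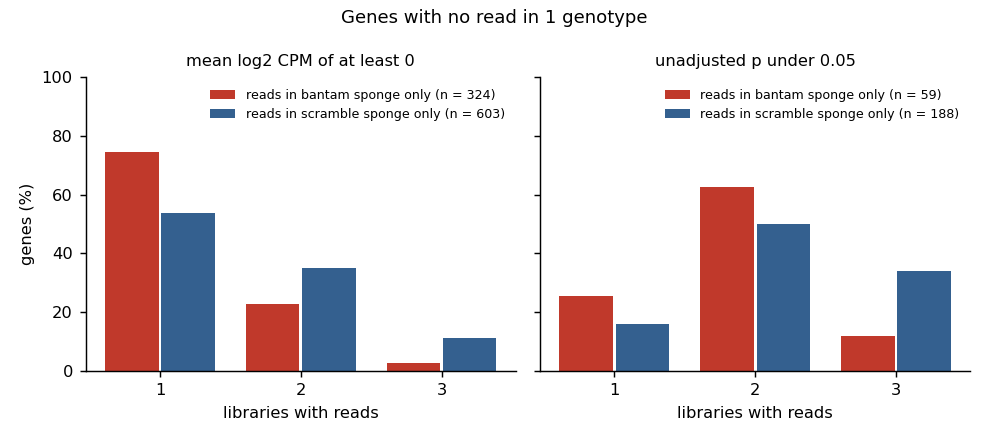
Share of genes (%) by the number of libraries with reads, among genes read in 1 genotype alone, for all at a mean of 0 log2 CPM or more (left) and for those with an unadjusted p under 0.05 (right). Red bars are genes with reads in bantam sponge alone (n = 324 and 59) and blue bars genes with reads in scramble sponge alone (n = 603 and 188); reads in all 3 libraries are the least frequent class in both sets on the left.

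The 5 genes nearest to CCHa2-R in fold and mean, within the genes without scramble sponge reads, were erm, CG14696, CG3626, CG17612 and Plod, a likeness over 1 comparison of 6 libraries. The transcription factor erm had 16173 reads in the middle bantam sponge library and 0 in the other 5. CG14696 and CG17612 also had reads in the middle bantam sponge library alone, 14288 and 13693. Plod, a lysyl hydroxylase of collagen, had 97 reads in the deepest and 13290 in the middle library. CG3626 had 6665 reads in the deepest and 11609 in the middle library. None of these 5 had a read in the shallowest bantam sponge library.

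**Figure D3:**
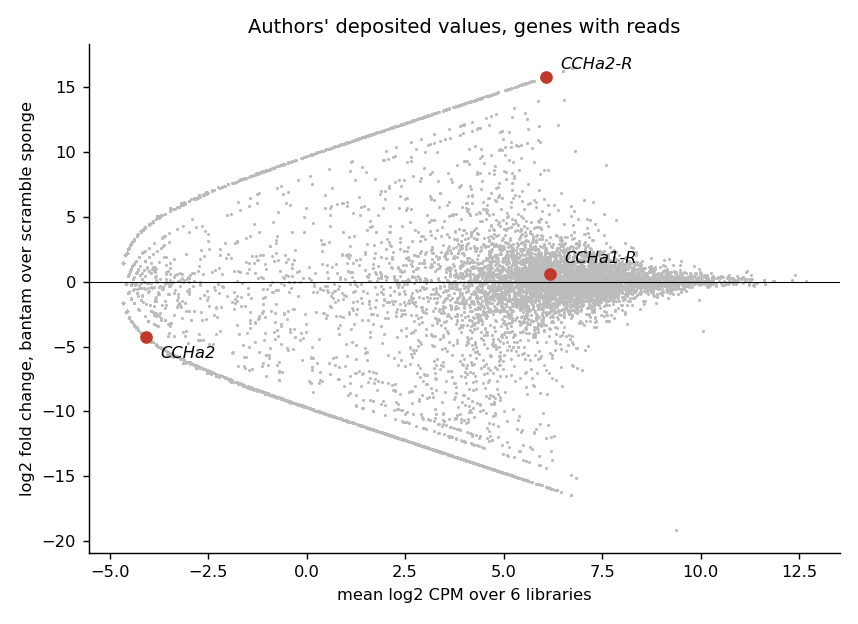
The authors' deposited log2 fold change (bantam over scramble sponge) against mean log2 CPM for the 9286 genes with reads, with the 3 CCHamide genes that had reads in red. CCHa2-R lies on the upper edge and CCHa2 on the lower edge, where genes with no read in 1 genotype fall; CCHa1-R lies at 0.58 among genes read in both.

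CCHa1-R, the receptor of CCHa1, was read in both genotypes but unevenly across their libraries. The gene (FBgn0050106) lies on 2R from 17646848 to 17665068 on the minus strand, with 1 annotated transcript of up to 9 exons. With the scramble sponge it had 680 reads (6.94 CPM) in the deepest library, 4597 reads (106 CPM) in the middle one and 325 reads (61.3 CPM) in the shallowest. With the bantam sponge it had 1 read in the deepest library, 0 in the middle one and 2125 reads (260 CPM) in the shallowest. The gene was thus read in every scramble sponge library, and in bantam sponge nearly all of it came from the library with the fewest reads. That library alone held 59.9% of its summed CPM, and the groups overlapped.

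The means of CCHa1-R were 86.6 ± 150.0 CPM in bantam sponge and 57.9 ± 49.4 CPM in scramble sponge (SD, n = 3 each). The authors' deposited table gives a log2 fold change of 0.58 with a p of 0.861 by edgeR's exact test, and the adjusted p was 1. With the dispersion behind that p (5.26), a 95% interval of the log2 difference ran from -7.74 to 8.90, so the table cannot tell large changes in either direction from none. Without the shallowest bantam sponge library the bantam sponge mean was 0.0042 CPM and the log2 ratio of means was -13.75, the opposite direction. Without any 1 of the other 5 libraries the log2 ratio stayed between 0.05 and 1.34. Of the 5 genes nearest to CCHa1-R in fold and mean (CG5276, ari-2, CG6565, HPS4 and CG12795), 1 had reads in all 6 libraries, CG5276. HPS4 had 29691 reads in the deepest bantam sponge library and 0 in the other bantam sponge libraries.

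The highest levels of the 2 receptors fell in different libraries. More than 4 reads of CCHa2-R were found in 2 libraries and more than 4 reads of CCHa1-R in 4 libraries, and 0 of the 6 had more than 4 of both. How many other gene pairs fall apart in this way was not counted, so it is not read as a trait of this pair. The limit of 4 reads was set after seeing the data, at the CCHa2-R count of the shallowest bantam sponge library; at least 1 read of both receptors was found in 2 libraries, the deepest and the shallowest of the bantam sponge. Per kilobase of the longest transcript (2.761 kb for CCHa2-R, 2.642 kb for CCHa1-R), CCHa2-R reached 86.0 and 60.4 CPM per kb in the deepest and middle bantam sponge libraries, where CCHa1-R had at most 0.00318. In the shallowest bantam sponge library CCHa1-R reached 98.3 CPM per kb and CCHa2-R 0.177. As means, CCHa2-R stood at 48.8 ± 44.0 CPM per kb in bantam sponge, above CCHa1-R at 32.8 ± 56.8 in bantam sponge and 21.9 ± 18.7 in scramble sponge (SD, n = 3). None of these neighbours in order differed beyond its SD. CCHa2 stood at 0.0289 CPM per kb in scramble sponge, and CCHa1 had no read. Neither receptor shares annotated exons with another gene: CG7856 lies within the bounds of CCHa2-R on the opposite strand, without exon overlap.

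Markers of other cell types were read in the same libraries. As background to the counts below, 4316 of all 9286 genes with reads were above a log2 fold change of 0 and 4970 below. At an unadjusted p under 0.05 (edgeR exact test by the authors), 98 (1.06%) were higher in bantam sponge and 290 (3.12%) lower. The glial gene e (ebony) had 27905 reads in the deepest bantam sponge library and 0 in the other 5, and moody, of the blood-brain barrier, had 2762 reads in that library alone. All 10 glial markers had reads and summed to 2091 CPM in bantam sponge and 1013 CPM in scramble sponge. The most abundant were Gs2 and nrv2, at a mean log2 CPM of 9.82 and 8.31 and log2 fold changes of 1.23 and 1.10 in the authors' deposited table. Of the 10, 7 were above a log2 fold change of 0 and 1 (e) had an unadjusted p under 0.05. The other 3 had log2 fold changes below 0 in the authors' deposited table: repo, the glial transcription factor, with -6.70 and a p of 0.0525, wrapper with -4.88, and Indy, whose 93 reads were all in the shallowest scramble sponge library. The peptide gene Tk had 21773 reads in the deepest bantam sponge library and 207 in the deepest scramble sponge library. Hemocyte markers (7 of 8 with reads, eater without) had the higher sum in scramble sponge, at 870 CPM in bantam and 3813 CPM in scramble sponge. PPO1 had 21263 reads in the shallowest scramble sponge library alone. Log2 fold changes were below 0 for 6 of the 7 and above 0 for 1, Pxn. The authors' deposited log2 fold changes were -3.81 for PPO2 and 0.72 for Pxn, at a mean log2 CPM of 10.06 and 9.19. Markers of fat body, a tissue that makes CCHa2, summed to 231 CPM in bantam and 214 CPM in scramble sponge, with 7 of 7 read. FASN1, a fatty acid synthase, made up nearly all of the sum in bantam sponge; 5 of the 7 had log2 fold changes below 0 in the authors' deposited table, 2 of them, the yolk protein genes Yp1 and Yp3, at a p of 0.0335 and 0.0271. Yp1 had 602 and 4021 reads in the deepest and middle scramble sponge libraries and 0 in the other 4. The enteroendocrine list, which pros (a gene of many neurons) dominates, summed to 6823 and 6520 CPM, with 7 of 8 read and Mip at 0. Photoreceptor markers summed to 115 and 284 CPM, with 9 of 12 read and Rh3, Rh5 and Arr1 at 0. Of the 9, 8 had log2 fold changes below 0, among them Arr2 with -14.12 and a p of 0.0445 in the authors' deposited table (edgeR exact test). Clock neuron markers summed to 454 and 395 CPM, with 8 of 10 read and Pdf and gl at 0. Of the 8, 6 had log2 fold changes below 0, while cyc had 8.61 and a p of 0.0186 in the authors' deposited table (edgeR exact test). Kenyon cell markers summed to 1002 and 1119 CPM, with 9 of 9 read, 3 above a log2 fold change of 0 and 6 below. The most abundant were dac, Fas2 and Dop1R1, at a mean log2 CPM of 8.57, 8.02 and 7.83 in the authors' deposited table. Only 1 read was found of prt, and the 86 reads of ey were all in the shallowest scramble sponge library. The part of all these cell types in the receptor values was not tested. The sums are genotype means worked out from the fold and the mean, with no spread between libraries.

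Most other peptide receptors were also missing from some libraries. Of 37 other receptors of peptides, 26 had reads, and reads per library were recovered for 18 of those; 2 of the 18 were read in all 6 libraries and 4 in 1 library. AstC-R2, an allatostatin C receptor, was the steadiest of the 18 at 9.02 to 42.8 CPM in every library, a choice made after its values were seen. The highest mean log2 CPM values of the list in the authors' deposited table were 7.11 for CNMaR and 6.64 for rk, the bursicon receptor, above 6.08 for CCHa2-R on a scale that is not per length. Reads per library were not recovered for CNMaR or rk, so the counts over the 18 leave out the highest levels.

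Of the 26, 1 had an unadjusted p under 0.05, namely Pdfr, the receptor of the clock peptide Pdf, with a p of 0.0223 in the authors' deposited table. Pdfr had 12167, 4600 and 290 reads in the scramble sponge libraries from deepest to shallowest (124, 106 and 54.7 CPM). In the bantam sponge libraries it had 99, 1 and 1 reads. How many of all genes separate the genotypes in this way was not counted. Its direction was thus the opposite of that of CCHa2-R, and its adjusted p was 1. The share of all genes with reads that were lower in bantam sponge at that threshold was 3.12%. The median log2 fold change of the 26 receptors was -1.08, beside -0.13 for all genes with reads.

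**Figure D4:**
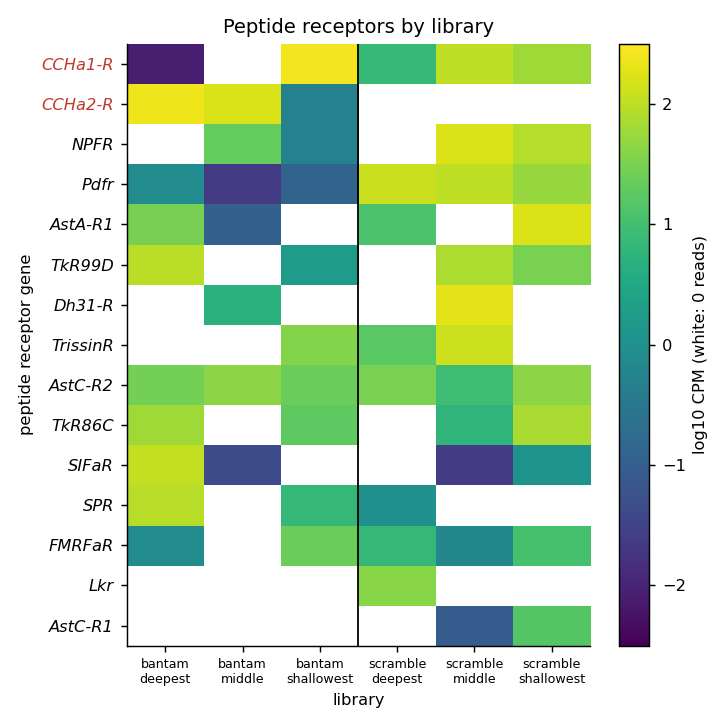
Level (log10 CPM, colour) of the 2 CCHamide receptors and 13 other peptide receptors in each library, for genes at a mean of 0 log2 CPM or more and with recovered reads; white is 0 reads, and the line divides bantam from scramble sponge. CCHa2-R is white in all 3 scramble sponge libraries, Pdfr is low in all 3 bantam sponge libraries, and most other receptors are missing from libraries of both genotypes.

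Of 37 other neuropeptide precursors, 22 had reads, 2 of them at an unadjusted p under 0.05, both lower in bantam sponge (3.12% of genes with reads). AstC, the precursor of allatostatin C, had 604, 8704 and 90 reads in the scramble sponge libraries from deepest to shallowest and 0 reads in each bantam sponge library (p 0.0071 in the authors' deposited table). Nplp3 had 204, 7607 and 38 reads there and 0 in bantam sponge (p 0.0117 in the authors' deposited table). Both were thus read in every scramble sponge library, the reverse of CCHa2-R, as were 68 (11.3%) of the 603 genes with recovered reads in scramble sponge alone. The most abundant precursors were Dh44 and Nplp1, at a mean log2 CPM of 11.23 and 10.73 according to the authors' deposited table. The median log2 fold change of the 22 was 0.11, and it was -0.70 for the 17 of them at a mean of 0 log2 CPM or more, so its sign turned with the filter on low values.

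Genes that relay signals of peptide receptors inside the cell were mostly read. Of 23 genes for G proteins, phospholipase C, the IP3 receptor and related relay proteins, 22 had reads and 0 had an unadjusted p under 0.05, beside 4.18% of all genes with reads, with a median log2 fold change of -0.26. Ggamma30A and Ggamma1, both G protein γ subunits, led the list at a mean log2 CPM of 10.65 and 10.39 according to the authors' deposited table. The 12 genes for peptide maturation and release, which include the processing factor 7B2 and the vesicle protein IA-2 (mean log2 CPM of 11.44 and 11.25 in the authors' deposited table), also had 0 at that threshold and a median of 0.31.

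Of 18 genes for insulin-like peptides and their relay, a pathway described downstream of CCHa2 in larvae, 17 were in the table and 13 had reads. Of the 13, 1 had an unadjusted p under 0.05, namely Thor, the translation inhibitor 4E-BP, with 6010 and 344 reads in the middle and shallowest scramble sponge libraries, 0 in the deepest and 0 in all bantam sponge libraries (p 0.0218 in the authors' deposited table). Of all genes with reads, 3.12% were lower in bantam sponge at that threshold. Ilp2 had 9438 reads in the middle bantam sponge library and 14242 in the middle scramble sponge library, with at most 130 elsewhere. Ilp3 had reads in those same libraries alone, 4412 and 10997. Ilp2 and Ilp3 are known as markers of insulin-producing cells, and which cells gave their reads here was not tested. The median log2 fold change of the 13 was -1.58, beside -0.13 for all genes with reads.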

How the data were processed

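Poly(A) RNA was amplified, per the labels' protocols, by a SMART-seq2 protocol (25 PCR cycles) into Nextera XT libraries; 2 replicates were sequenced with 75-base and 1 with 150-base paired reads, and the sources used here do not say which, so no value within 1 instrument could be computed. Per the submitters' processing notes, STAR, dm6, Picard, HTSeq and edgeR were used, without versions.

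Per the file headers, the authors deposited log2 fold changes (bantam over scramble sponge), mean log2 CPM and unadjusted p-values. Adjusted p-values were computed here (Benjamini-Hochberg, all 17117 rows, threshold 0.05). The plan assumed that no library values could be had.

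Reads per library were recovered by re-coding the arithmetic of the authors' tool (with its default prior counts, in Python 3.11.15 with numpy 2.4.6, scipy 1.17.1 and numba 0.67.0, tested on simulated data). The test gave the right reads for 58 of 60 genes read in 1 genotype and 12 of 12 read in both. Its values came from the same re-coded functions, so it checked the search and not the likeness to the authors' tool. The widest tolerance used on the real data was not part of it. From 123 read patterns of low genes, 6 effective library sizes, normalization factors included, and a common dispersion of 4.50 were solved (largest residual 7.99e-15 log2 CPM). Of 1417 low genes, 1155 (81.5%) matched a pattern of at most 5 reads within 1e-09. For other genes, whole-number reads had to give the deposited mean. A dispersion was then solved for each set of reads so that it gave the deposited fold, which is thus fitted. With that dispersion the set had to give the deposited p within a relative error of 1e-06 (reads in 1 genotype) or 1e-08 (both). For CCHa2-R, 1 set of reads gave the mean, and it gave the p to 2.3e-09. For CCHa1-R, 520351 sets gave the mean within a range set from the fold, and 1 gave the p. Of 943 genes with no read in 1 genotype 927 were solved, and of 49 tried with reads in both, 43. Genes with reads in both genotypes at the highest means were not tried. A gene at a mean of 0 log2 CPM or more was taken to lack reads in 1 genotype when its absolute log2 fold change exceeded the mean by over 9 (gap in the data from 8.34 to 9.66). The tolerance on the mean was widened from 2e-14 to 1e-12 where no set was found, which raised the number of genes solved. Tolerances, this gap and the search steps were set after seeing the data, so that more genes could be solved.

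The named genes are the 4 members, the 5 nearest by fold and mean, and of each list those with an unadjusted p under 0.05 and the 2 most abundant; single markers were named after their values were seen. Members and lists were chosen with earlier results of these data known. Coordinates are from Ensembl release 115. Alternatives were other adjustments, thresholds, centring, filters, priors and left-out libraries. Columns of other samples: 0.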

Additional observations from a re-analysis of the deposited data

How the results depend on the processing

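No paired analysis was possible because the table holds no columns per replicate and the recovered libraries carry no replicate number. The level of CCHa2-R in bantam sponge, when worked out from the deposited fold with the tool's default prior count, was 135 CPM; with a prior of 0.25 it was 270 CPM and with 0.5 it was 539 CPM, because that fold scales with the prior when 1 genotype has no read. The recovered reads gave 135 CPM, and leaving out 1 bantam sponge library at a time gave 83.6 to 202 CPM. For CCHa1-R, leaving out 1 library at a time moved the log2 ratio of means (0.58) between -13.75, without the shallowest bantam sponge library, and 1.34. These left-out libraries, and the count of genes with reads in both genotypes at 4 or more reads (1, as with 1 read), were chosen after seeing the data. The adjusted p of CCHa2-R was 0.752 over genes at a mean of 0 log2 CPM or more and 1 with Holm's adjustment. Centring on the median fold of genes with reads in both genotypes (-0.07) changed no direction, and a threshold of 0.01 left 1 member below it. Depth limits the shallowest pair most: 3 reads there are 0.367 and 0.565 CPM.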
